A study of Drosophila melanogaster with 3 samples.

Results

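The genes described here are the protein-coding genes of chromosome 4 of Drosophila melanogaster. Of 80 such genes in the annotation, 8 were left out by symbol (genes for ribosomal proteins, translation factors and mitochondrial complexes, and ci, ey, toy and pan), which left 72 of the 13945 protein-coding genes on the 6 chromosome arms. The choice used the chromosome and the symbol, and no measured value. ChIP-seq with an anti-GFP antibody was used to map a fusion of CG2116 with eGFP at its C terminus in chromatin of whole embryos, 0 to 24 h old and of both sexes. All 3 libraries, numbered 1, 2 and 4, form 1 group from 1 transgenic line, with no second genotype or treatment. The labels call them biological replicates and say no more of how embryos were collected, so part of the spread between libraries may be technical. A mixture of all cell types and embryonic ages gives 1 averaged signal, and fewer occupied cells cannot be told apart from weaker occupancy in each cell. No list from untagged embryos entered the comparison, and sites common to anti-GFP precipitations were therefore not set apart.

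Chromosome 4 is the smallest autosome of the fly, and much of it carries the marks of heterochromatin, with HP1a and methylated lysine 9 of histone H3 spread among active genes. Its genes are nevertheless expressed, and a dedicated protein, Pof, binds along them. The product of CG2116 has no role that the files describe. The word TATCGATA is the core of the DNA replication-related element, bound by DREF and found at the promoters of many genes active in dividing cells, and its inner ATCGAT is searched here as a shorter form.

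A gene was called bound when a summit of the deposited IDR list, the peaks that passed the authors' test of reproducibility, lay within 500 bp of any of its transcription start sites (TSSs). Signal is the enrichment value that the authors' caller gave a peak in the pooled list, and relative signal is a replicate's value divided by that replicate's median over IDR peaks. The following 121-bp windows centre on summits of chromosome 4 and are shown because they carry its highest peak and the main examples below. They are dm6 plus strand from RefSeq, with TATCGATA or ATCGAT in capitals. The first lies between genes, 644 bp upstream of the nearest TSS of Sox102F, and the third lies in an intron of Asator. The others lie just upstream of the start of the named gene, each of which runs on the minus strand.
Sox102F upstream, chr4:834977-835097: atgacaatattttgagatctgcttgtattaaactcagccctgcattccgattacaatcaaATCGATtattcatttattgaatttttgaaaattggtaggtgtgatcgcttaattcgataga
PIP4K start, chr4:1196843-1196963: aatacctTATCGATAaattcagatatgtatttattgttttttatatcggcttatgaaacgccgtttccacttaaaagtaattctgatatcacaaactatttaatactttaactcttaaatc
Asator intron, chr4:486650-486770: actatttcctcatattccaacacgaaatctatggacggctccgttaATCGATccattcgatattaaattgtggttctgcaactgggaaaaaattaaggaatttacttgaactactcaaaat
Actbeta start, chr4:1084805-1084925: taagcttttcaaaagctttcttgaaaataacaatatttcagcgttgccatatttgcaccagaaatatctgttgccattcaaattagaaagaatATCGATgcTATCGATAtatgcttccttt
PlexA start, chr4:1027203-1027323: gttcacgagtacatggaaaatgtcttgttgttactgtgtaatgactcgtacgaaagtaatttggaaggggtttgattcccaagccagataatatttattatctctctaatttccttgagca

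Of the 72 genes, 31 were bound, or 43.1% (exact Clopper-Pearson 95% interval 31.4 to 55.3), beside 42.6% of the 13865 genes on the other arms. A further 25 genes had a summit at a TSS only among the weaker peaks of the pooled list, or 34.7% (23.9 to 46.9), beside 17.7% on the other arms. The last 16 had no pooled summit there, or 22.2%, beside 39.7% on the other arms. Chromosome 4 was thus close to the rest of the genome in the share of bound genes and held more genes with a weak summit and fewer with none. These intervals cover counting error only, and neighbouring genes can share a peak.

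What set the 72 genes apart was the range of peak strength over which they appeared. Among the 2500 strongest pooled peaks, summits lay at 2 of the 72 genes, or 2.78%, beside 22.5% of genes on the other arms. With the 3568 strongest the count was 8 genes, or 11.1% beside 29.5%, and with the 5000 strongest it was 24 genes, or 33.3% beside 36.5%. With all 30000 pooled peaks 56 genes had a summit, or 77.8% beside 60.3%. The 8 genes left out by symbol were dropped on chromosome 4 only, and the other arms kept genes of those kinds. Of those 8, eIF4G1, pan and ey had start summits ranked 175, 855 and 2355. Over all 80 chromosome 4 genes, the 3568 strongest summits of replicates 1, 2 and 4 reached 17.5%, 11.25% and 18.75%. On the other arms they reached 29.2%, 28.1% and 28.8%. The median signal of bound genes was 264 over all 80.

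**Figure D1:**
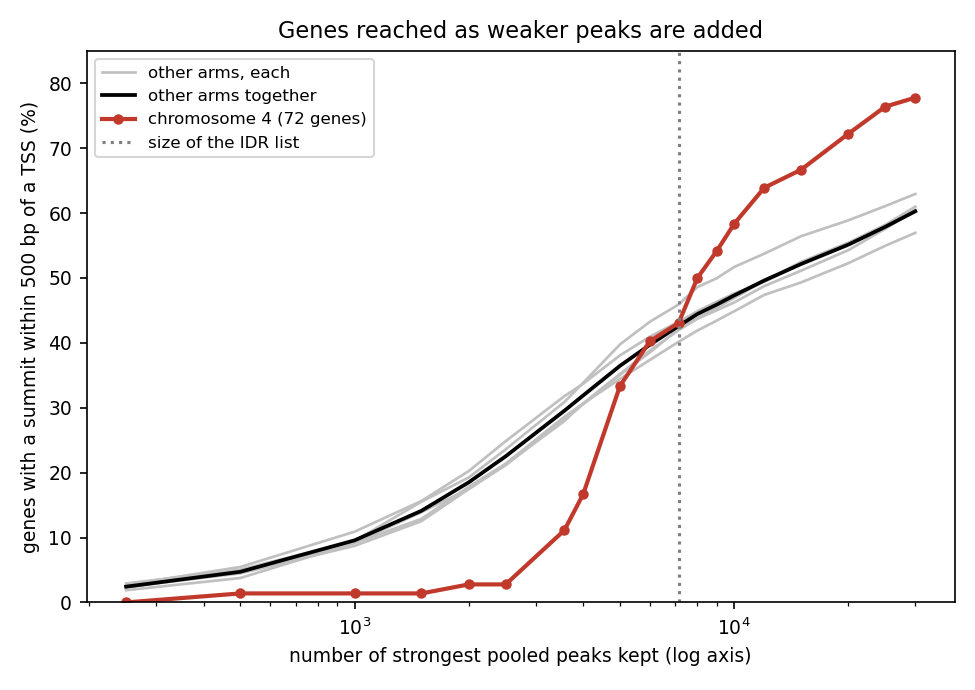
Percentage of genes with a pooled summit within 500 bp of a TSS (y axis) against the number of strongest pooled peaks kept (x axis, log scale), for the 72 genes of chromosome 4, each other arm and the other arms together. The chromosome 4 curve is at most 2.78% up to 2500 peaks, meets the other arms near the 7137 peaks of the IDR list and ends at 77.8%, above all 5 of them.

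Ranked separately, the replicate lists gave shares close to those of the pooled list. Among the 3568 strongest summits of replicates 1, 2 and 4, the share of the 72 genes was 13.9%, 8.33% and 15.3%, beside 29.2%, 28.1% and 28.8% of genes on the other arms. In every replicate the chromosome 4 share was the lower, with a mean difference of -16.2 ± 3.22 percentage points (SD, n = 3). Among the 7137 strongest the shares were 45.8%, 40.3% and 44.4%, beside 42.1%, 41.0% and 42.0%, and the difference of 1.83 ± 2.31 points was smaller than its spread (exact two-sided sign-flip permutation test, p = 0.5). Over the whole replicate lists the shares were 79.2%, 75% and 73.6%, beside 59.1%, 58.4% and 60.2%, higher on chromosome 4 in every replicate by 16.7 ± 3.36 points. For the 3568 strongest summits and for the whole lists the exact permutation p was 0.25, the smallest that 3 replicates allow, so neither can pass 0.05.

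**Figure D2:**
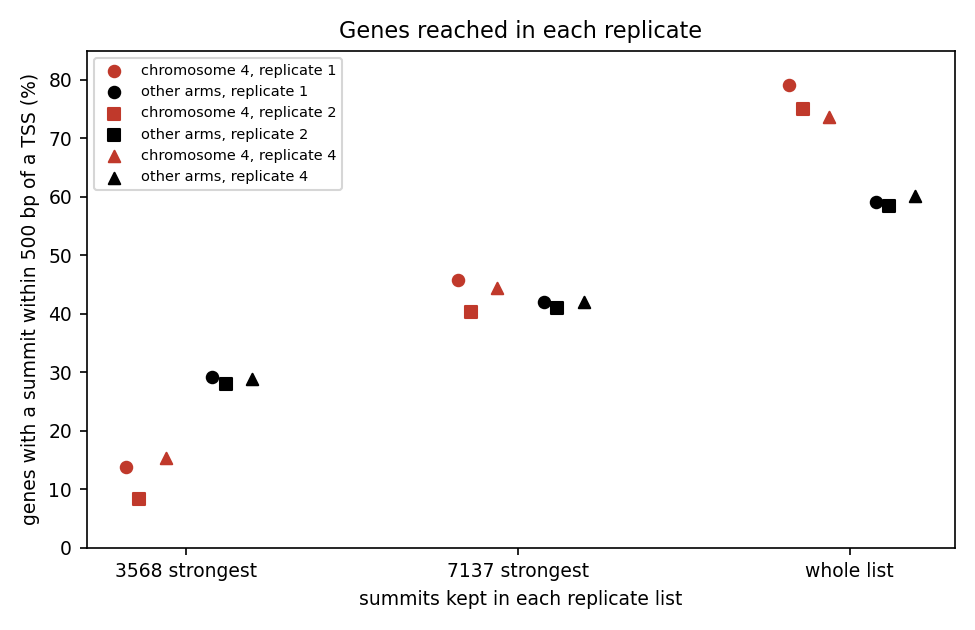
Percentage of genes with a summit within 500 bp of a TSS (y axis) in each replicate list, for 3 numbers of summits kept (x axis); red points are the 72 genes of chromosome 4 and black points the other arms, with a marker shape per replicate. The red points lie below the black ones with 3568 summits, overlap them with 7137 and lie above them with the whole lists of 30000.

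The genes of chromosome 4 differ from those of the other arms in layout, and these shares moved with it. Their median length was 10090 bp beside 2156 bp, and 72.2% were isolated, with each TSS more than 1000 bp away from any TSS of another gene, beside 57.0%. Among isolated genes, 40.4% of 52 on chromosome 4 were bound, beside 24.7% of 7902 on the other arms. In these genes the 3568 strongest summits of each replicate reached 14.1% ± 5.55 (SD, n = 3) on chromosome 4 and 13.8% ± 0.888 on the other arms, a difference of 0.258 points (exact permutation p = 1). In isolated genes over 5000 bp, 39.5% of 43 were bound beside 36.1% of 2138. There the 3568 strongest summits gave a difference of -6.64 points (exact permutation p = 0.25, the smallest possible). Replicates 1, 2 and 4 reached 18.6%, 6.98% and 16.3% beside 20.6%, 19.6% and 21.6%, lower on chromosome 4 in each. The lower share among the strongest summits was thus not resolved over all isolated genes, but was seen in every replicate in the long ones. The whole pooled list reached 76.9% of isolated genes on chromosome 4 and 46.5% on the other arms. That gap was smaller in long genes. The whole pooled list reached 82.5% (70.1 to 91.3) of the 57 chromosome 4 genes over 5000 bp and 77.5% of such genes on the other arms, where 17.5% and 22.5% had no pooled summit. In isolated genes over 5000 bp it reached 81.4% and 69.5%.

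Bound genes of chromosome 4 carried weaker and more uniform peaks than bound genes elsewhere. Their median signal was 261, with quartiles at 228 and 292, beside a median of 411 and quartiles of 267 and 672 on the other arms. Only PIP4K and PlexA lay above the other-arm median, and 19 of the 31 lay below the other-arm lower quartile. The median relative signal was 0.855, 0.754 and 0.827 in replicates 1, 2 and 4, beside 1.39, 1.36 and 1.34. Every replicate gave the lower value on chromosome 4, with a mean difference of -0.551 ± 0.0502 (SD, n = 3; exact permutation p = 0.25, the smallest possible). Among bound genes with isolated TSSs the medians were 261 and 344. A strongest summit at a bound gene was recovered among the 7137 strongest of all 3 replicates for 22 of the 31 genes, or 71.0%, beside 79.8% on the other arms.

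**Figure D3:**
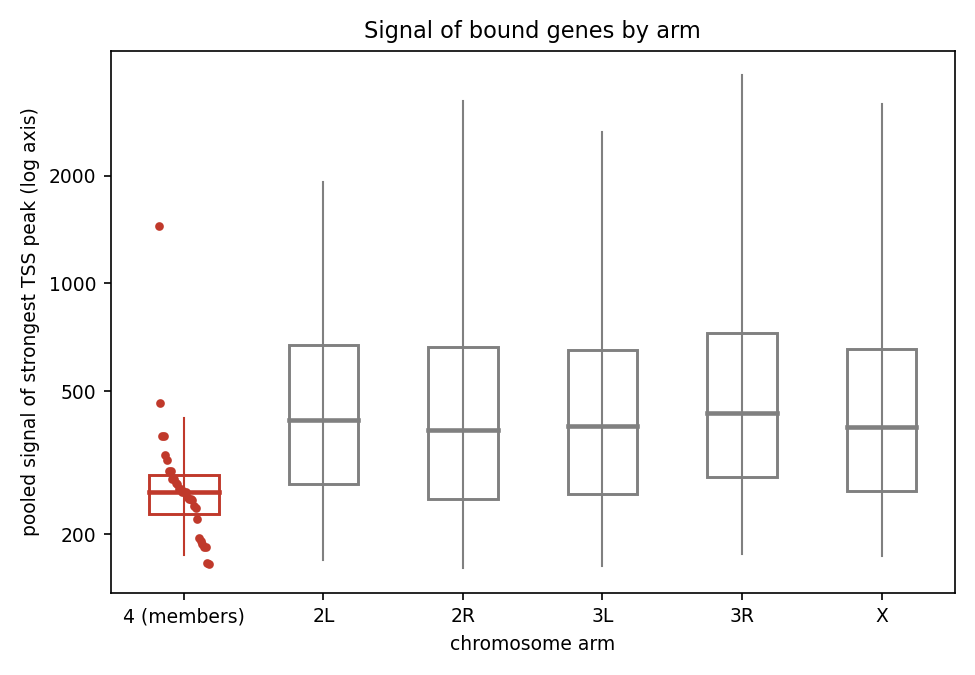
Pooled signal of the strongest IDR peak at a TSS (y axis, log scale) for bound genes of each arm (x axis); boxes show the quartiles and median, lines run from the 5th to the 95th percentile, and red dots are the 31 bound genes of chromosome 4. The chromosome 4 box, 228 to 292, lies lowest, and 1 dot, PIP4K at 1442, stands far above it.

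The base composition of the windows also differed. The summit windows of 201 bp at bound genes had a median GC content of 33.8% on chromosome 4 and 36.3% on the other arms. Between 31.8% and 36.3% GC, the interquartile range of the chromosome 4 genes, the median signal was 267 for 18 of them and 432 for 1631 others. These genes were not matched for isolation or length. The part of base composition, read mappability or heterochromatin in these levels was not tested.

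PIP4K (FBgn0039924, chr4:1192419-1196848), which encodes a phosphatidylinositol phosphate kinase, had the strongest start on the chromosome among the 72 genes. Its summit lay 55 bp upstream of the TSS, in the window printed above with TATCGATA, and its signal of 1442 ranked 359 of 7137. The relative signal was 5.09, 5.21 and 4.40 in replicates 1, 2 and 4 (4.90 ± 0.436, SD, n = 3), above every other bound gene of the set in each replicate. A second IDR summit within 500 bp had a signal of 587.

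PlexA (FBgn0025741, chr4:1009895-1027101) encodes a receptor for semaphorins in axon guidance. Its relative signal was 1.41, 1.56 and 1.58, a narrow spread (1.52 ± 0.0956). The summit lay 162 bp upstream of the start, and the window printed above holds no ATCGAT. Sox102F, a SoxD transcription factor gene, followed with 1.24, 1.28 and 1.03 (1.18 ± 0.135) at a TSS within its locus. The gene gw encodes the GW182 partner of Argonaute in microRNA silencing, and its values were 0.855, 1.39 and 1.23 (1.16 ± 0.276). The replicates of gw and Sox102F overlapped, so their order is not resolved, while those of PlexA lay above all of Sox102F.

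The kinase and adaptor genes were the one role list bound in full. All 6 of PIP4K, CaMKII, Crk, Dyrk3, Asator and CaMKI had an IDR summit at a TSS, beside the background of 42.6%. The list is small and was chosen with earlier results of these data known, so it describes these genes and not a class. CaMKII, a calcium-dependent kinase known for its part in learning, had relative signals of 1.03, 0.738 and 1.32 (1.03 ± 0.293). Crk, an SH2 and SH3 adaptor, had 0.771, 0.806 and 0.938 (0.838 ± 0.0878), with its summit 20 bp inside the transcript. Asator, a tau tubulin kinase homologue, had 0.756, 0.950 and 0.768 (0.825 ± 0.109) at the stronger of 2 start summits. CaMKI was weaker, at 0.596, 0.614 and 0.503 (0.571 ± 0.0597), below CaMKII, Crk and Asator in every replicate. Dyrk3, on a summit shared with Cadps, was matched at 0.491 and 0.731 in replicates 1 and 2 only.

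Transcription factors and cofactors were at the other end, with 3 of 15 bound. Another 9 had a weaker pooled summit and 3 had none. This share depends on the choice of genes, because the transcription factor genes ci, ey, toy and pan were left out by symbol. Of these, pan and ey had IDR summits at a start, with signals of 798 and 408, above the 376 of Sox102F. With 3 to 15 genes each, this list and those that follow are read beside the same 42.6% on the other arms. Besides Sox102F, Hcf, whose product is a cofactor of chromatin complexes, had relative signals of 1.37, 0.681 and 1.07 (1.04 ± 0.344), with TATCGATA in its promoter. Taf3, a TFIID subunit gene, was the weakest bound gene, with a pooled signal of 165 and a matching summit in replicates 1 and 2 only, at 0.758 and 0.275. MED26, for a Mediator subunit, fell just outside the IDR list with a pooled signal of 142, beside 144 for the weakest IDR peak, although one of the 7137 strongest summits lay at its TSS in all 3 replicates. The Polycomb group gene pho had a pooled signal of 96.2, and its replicates differed. One of the 7137 strongest summits lay at its TSS in replicates 1 and 2, and replicate 4 had no summit there. The Wnt cofactor gene lgs had a pooled signal of 109, while sv, dati and fd102C had no pooled summit at a TSS.

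Genes for signalling at the cell surface and the synapse were mixed. Of 4 guidance genes, PlexA and Eph were bound, and PlexB and Ephrin had weaker summits only. Eph, a receptor tyrosine kinase, had relative signals of 1.08, 0.637 and 0.791 (0.837 ± 0.226), while the gene of its ligand, Ephrin, had a pooled signal of 79.1. Of 3 TGF-beta family ligands, only Actbeta was bound, at 1.16, 0.722 and 0.816 (0.900 ± 0.233). Its window above holds both TATCGATA and a separate ATCGAT. The ligand gene myo had a pooled signal of 131, and mav had no pooled summit at a TSS.

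Of 9 synaptic and neuronal genes, 4 were bound, and Syt7, Gat and Cals had no pooled summit at a TSS. Slip1, which encodes a partner of a calcium-activated potassium channel, had 0.889, 1.28 and 0.614 (0.929 ± 0.337) from a summit it shares with CG46466. Cadps, for a protein of dense-core vesicle release, has the summit and values given above for Dyrk3. The glutamate receptor gene mGluR had 0.719, 0.403 and 0.584 (0.569 ± 0.159) and the most distant summit of any bound gene, 379 bp upstream. The vesicle priming gene unc-13 had 0.705, 0.669 and 0.538 (0.637 ± 0.0874) at 1 of 4 TSSs, the tightest of these. Outside the 500 bp limit, the nearest miss was CG33941, whose closest IDR summit lay at 728 bp.

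The remaining lists held 1 to 6 bound genes each. In RNA regulation gw and Gyf were bound, and 4E-T, for a repressor of translation, had no pooled summit at a TSS, although each replicate list held one there. Gyf had 0.668, 0.824 and 1.20 (0.898 ± 0.275). Among GTPase genes only Arl4, of the Arf-like family, was bound, at 0.907, 0.754 and 1.07 (0.911 ± 0.159). Of the repair and turnover genes, Rnf11, a RING finger gene, had 1.08, 0.373 and 1.15 (0.867 ± 0.430), so replicate 2 stood well below the others. Rad23, for a shuttle factor of excision repair and the proteasome, had 0.434, 0.751 and 0.563 (0.583 ± 0.159), and Tdg was not bound.

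In transport and metabolism 3 of 7 genes were bound. PMCA, the calcium pump of the plasma membrane, had 1.35, 0.941 and 0.719 (1.01 ± 0.323). The lipid carrier gene apolpp shares its summit with Zyx, the zyxin gene and the only one bound of 4 muscle and cytoskeleton genes. Their common values of 0.756, 0.781 and 0.838 (0.792 ± 0.0422) were the most even of the named genes. Of 15 other or uncharacterised genes 6 were bound, among them anne at 0.917, 0.835 and 0.985 (0.912 ± 0.0752) and CG31999 at 0.780, 0.704 and 0.983 (0.823 ± 0.144). Over the 26 bound genes matched in every replicate, the coefficient of variation ran from 5.33% to 49.5%, with a median of 20.6%.

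**Figure D4:**
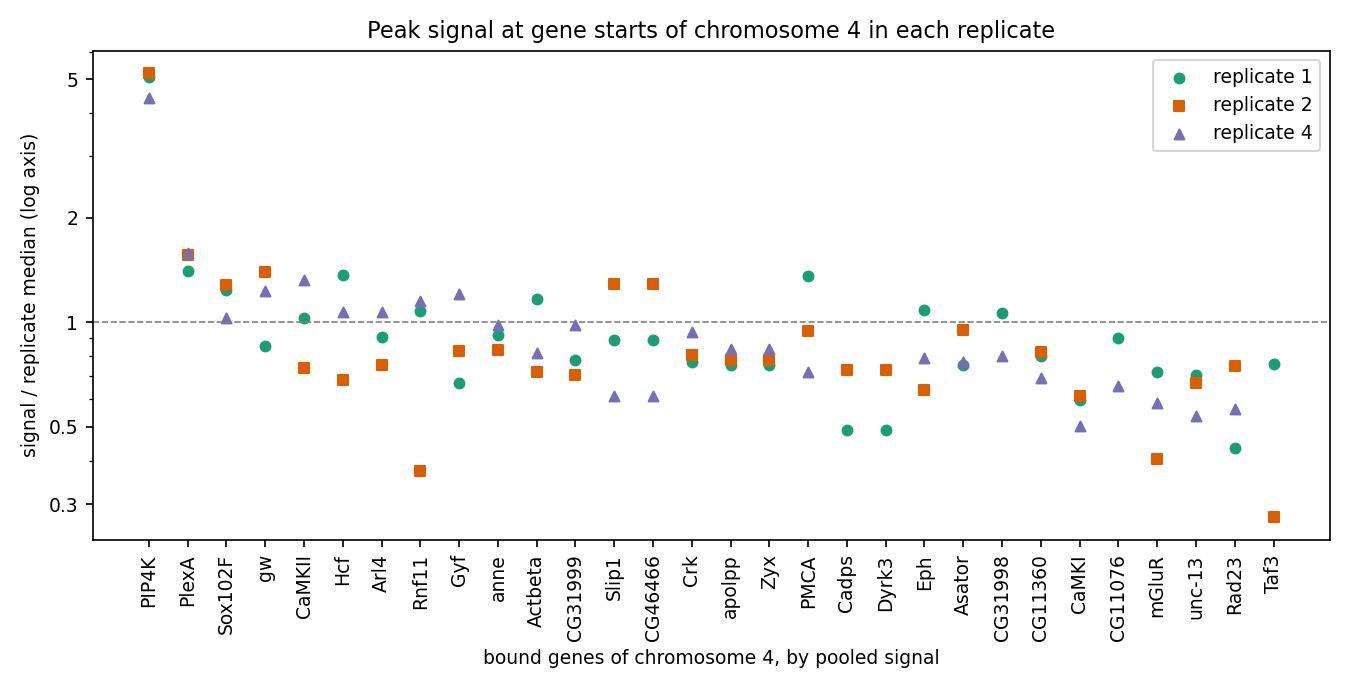
Relative signal (y axis, log scale; 1 is the replicate's median IDR peak) of the strongest TSS summit of 30 of the 31 bound genes (x axis, ordered by pooled signal), with a colour and shape per replicate. PIP4K stands at 4.40 to 5.21, and most other genes scatter below 1 with overlapping replicates; a missing point means no summit within 100 bp in that replicate.

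Summits on chromosome 4 lay close to the starts they mark. The median position was 64 bp upstream (median -64 bp, quartiles -96.5 and -26), beside -86 bp (quartiles -177 and -37) on the other arms. Within 100 bp of a TSS lay 24 of 31 summits, or 77.4%, beside 52.5%, and 25 lay upstream, or 80.6%, beside 89.6%. These positions also moved with layout. Among isolated genes the medians were -64 bp on chromosome 4 and -61 bp on the other arms, with 81.0% and 64.2% within 100 bp. In isolated genes over 5000 bp they were -69 and -89 bp, with 76.5% and 50.3% within 100 bp. These shares are descriptions, and no test was made of them.

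**Figure D5:**
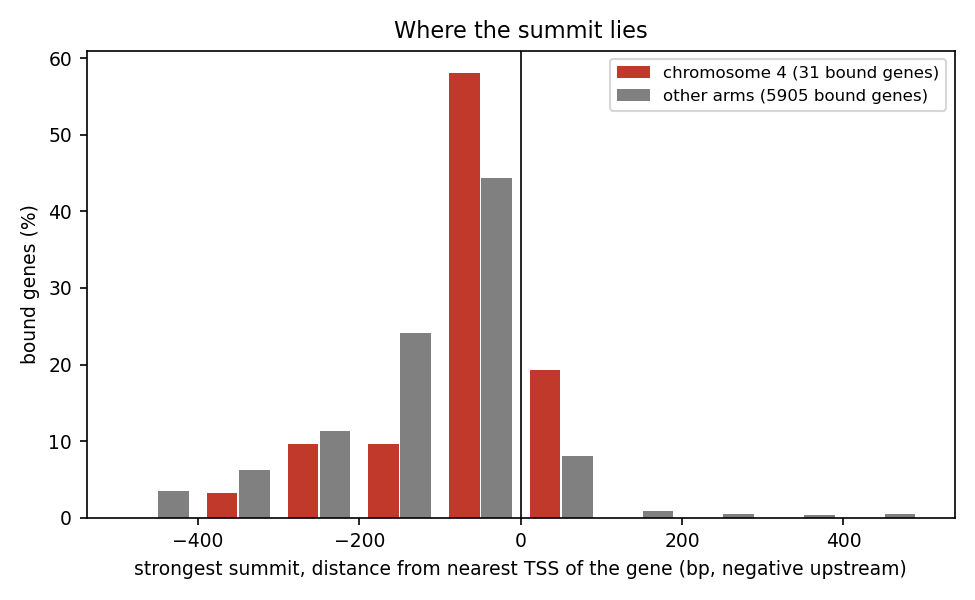
Percentage of bound genes (y axis) by the distance of their strongest IDR summit from the nearest TSS of the gene (x axis, 100-bp bins, negative upstream), for 31 genes of chromosome 4 in red and 5905 of the other arms in grey. The bin just upstream of the TSS holds 58.1% of the red and 44.4% of the grey genes.

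TATCGATA was more frequent in promoters of bound than of unbound genes, on chromosome 4 as on the other arms. In the window from 250 bases before to 50 after the outermost TSS, searched on both strands, TATCGATA occurred in 7 of the 31 bound genes (Crk, Hcf, Taf3, Eph, PlexA, Actbeta and PIP4K) and in 0 of the 41 others. The shares were 22.6% and 0%, beside 19.8% of bound and 1.65% of unbound genes on the other arms, and 9.37% of all promoters. Its core ATCGAT, which each TATCGATA contains, was in 11 bound genes, or 35.5%, beside 40.0% of bound genes elsewhere and 23.3% of all promoters. The word GGTCACAC was in 4 bound genes (Rad23, apolpp, Dyrk3 and Cadps), or 12.9%, and in 0 of the others. On the other arms it was in 14.8% of bound and 2.50% of unbound genes, and it was in 7.71% of all promoters. The windows of Dyrk3 and Cadps overlap, so they are not separate promoters. GCAACNCT was in 2 bound and 5 unbound genes, or 6.45% and 12.2%, the opposite order to the 10.4% of bound and 3.69% of unbound genes on the other arms. GAGAGAG was in 2 bound and 2 unbound genes, or 6.45% and 4.88%, beside 3.95% and 7.31% there. A match is a description of these letters in this window.

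Away from starts, IDR summits lay inside 8 of the 72 genes, or 11.1%, beside 7.45% on the other arms. These were 6 peaks, since sv and Cals share one and CG32017 and Kif3C another. Per 100 kb of gene the density was 0.864 beside 1.78, and among genes over 5000 bp the share was 14.0% beside 25.1%, so the direction turned with gene length. For PlexB, sv, Cals, CG32017 and Kif3C the inner summit was the only IDR peak, while Asator, Gyf and unc-13 also had one at a TSS.

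The highest peak of the chromosome lay at no protein-coding start. It spanned chr4:834598-835738 between genes, 644 bp upstream of the nearest TSS of Sox102F, with a signal of 8673 and rank 86. The next, with a signal of 4267, lay at the start of eIF4G1, one of the genes left out by symbol. The relative signal of the highest peak, upstream of Sox102F, was 27.7, 26.7 and 29.9 (28.1 ± 1.66, SD, n = 3). All were far above the 1.03 to 1.28 of the Sox102F start. The Asator intron peak, chr4:486538-486893, lay 677 bp upstream of the nearest Asator TSS. It had 4.19, 3.86 and 3.72 (3.92 ± 0.244), above the stronger Asator start summit in every replicate. Both windows printed above hold 1 ATCGAT near the summit.

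Weaker distal peaks followed. An intergenic peak at chr4:63381-63603 had 2.13, 1.91 and 2.14 (2.06 ± 0.130). Another lay 3903 bp upstream of zfh2, at chr4:497766-498031, with 1.68, 1.54 and 2.43 (1.89 ± 0.478), whereas the start of zfh2, a zinc finger and homeodomain gene, had only a weak pooled summit of signal 121. The peak at chr4:1113025-1113524 lay in the 3' untranslated regions of sv and Cals, with 1.44, 1.48 and 1.94 (1.62 ± 0.278). None of the 32 summits at starts of the 72 genes lay in an annotated transposable element, beside 5 of 5127, or 0.0975%, at starts on the other arms. Start summits in such elements were thus rare everywhere. The elements cover 24.8% of chromosome 4 and 5.74% of the other arms. Of all 57 IDR summits on the chromosome 2 lay in one, both in introns, or 3.51%, beside 0.155% on the other arms. Of its 169 lower-ranked pooled summits 33 did, or 19.5%, beside 0.499% on the other arms.

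A chosen list of 7 genes for regulators of chromosome 4 chromatin, which lie on other chromosomes, was also read. All 7 were bound, beside 42.6% of other-arm genes. Pof, for the protein that coats chromosome 4, had 2.03, 1.61 and 1.90 (1.85 ± 0.218). The gene of HP1a had 2.05, 1.88 and 1.69 (1.87 ± 0.176). The methyltransferase genes G9a, at 11.7, 9.27 and 11.7 (10.9 ± 1.41), and Su(var)3-9, at 6.30, 4.81 and 6.88 (6.0 ± 1.07), were the highest. Su(var)3-7, for an HP1a partner, had 2.54, 2.09 and 1.65 (2.09 ± 0.442). The gene egg, for a methyltransferase known to act on chromosome 4, was at the level of the chromosome 4 genes with 0.829, 0.646 and 0.758 (0.745 ± 0.0921), and wde, for its cofactor, was matched in replicate 2 only, at 1.07. All but egg share their summit with a neighbouring gene. On the other arms only 24.7% of isolated genes were bound, so genes close to a neighbour were bound more often than 42.6%. That background is therefore low for this list.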

How the data were processed

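The authors deposited, for build dm6, a relaxed peak list for each of 3 replicates, a relaxed list from pooled replicates and an IDR list. Signal in the deposited lists is an enrichment value from the peak caller, comparable only within a list. The deposited −log10 q was not used. The sources used here name no aligner, caller or IDR threshold, and depth and its precision are unknown. The dm3 lists were not used.

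Genes, TSSs and transposable elements came from Ensembl release 115 for the 6 main arms, and sequence from RefSeq of the same assembly. Peak coordinates are 1-based. A replicate summit within 100 bp matched an IDR summit. The replicate medians that scale relative signal were 77.8, 99.0 and 132.8. Python 3.11.15, pandas 2.3.3, numpy 2.4.6 and scipy 1.17.1 were used, and the counting steps were tested on simulated data.

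The 72 genes, role lists, words and tests were chosen with earlier results of these data known. Values are named for the 12 strongest bound genes, the 3 strongest of each role list, the 5 strongest peaks with no protein-coding TSS within 500 bp, genes on a shared summit and the regulator list. A few others (CaMKI, Asator, unc-13, Taf3, MED26, pho, lgs, zfh2, myo, Ephrin and CG33941) were named after their values were seen. Alternatives changed TSS distance, peak set, gene set and replicates. The values of 1 bound gene are not reported here.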

Additional observations from a re-analysis of the deposited data

How the results depend on the processing

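The median signal of bound chromosome 4 genes was below that of the other arms in all 13 alternative settings that give both, with a ratio of 0.575 to 0.760 (0.636 as reported). Shares moved more, and values are given for chromosome 4 and then the other arms. With the 3568 strongest IDR peaks, 11.1% and 29.5% were bound, medians were 354 and 538, and inner summits were 5.56% and 2.73%. With IDR peaks recovered in all replicates, 30.6% and 35.0% were bound, the other arms had a median of 472, and inner summits were 5.56% and 4.45%. With the whole pooled list the values were 77.8% and 60.3% bound, medians 184 and 289, and inner summits 51.4% and 27.6%. On the other arms alone, bound genes were 45.6% and inner summits 5.97% at 1000 bp, and 37.7% and 8.60% at 250 bp. With intervals that cover the TSS, the other arms had 35.7% bound and a median of 389, and inner summits have no value. With isolated TSSs they had 24.7%, a median of 344 and inner summits in 6.87%.

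The settings on gene length, on isolated genes over 5000 bp, on peaks beside a stronger one and on isolated genes in the replicate difference were chosen after seeing the data. Genes over 5000 bp on the other arms gave 51.3% bound and 25.1% with inner summits, and isolated ones gave 36.1%, 22.1% and a median of 353. Keeping IDR peaks recovered in the other replicates when 1 was left out gave 31.9% to 37.5% and 36.3% to 37.6% bound, medians of 267 in each case and 444 to 457, and inner summits in 5.56% to 6.94% and 4.80% to 5.66%. The IDR list itself still came from all 3 libraries. The replicate difference of 1.83 points turned to -16.2 with 3568 summits, to 0.258 with 3568 summits in isolated genes and to -6.64 with 3568 summits in isolated genes over 5000 bp. With 7137 summits in isolated genes it was 18.8. It ranged from 0.857 to 3.11 without 1 replicate. The cause was not tested. No paired analysis was possible because there is 1 group, and the differences above compare sets of genes within each replicate.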
